A study of Drosophila melanogaster with 13 samples.

Results

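This account covers the 6 libraries of larval motoneurons that compare Shal RNAi with Control, out of 13 libraries in 4 groups. The members were chosen by label: 3 libraries labelled Shal RNAi and 3 labelled Control, described over all 8908 genes that passed a low-count filter, of 17753 in the table. The animals were Drosophila melanogaster larvae of instar 3. In every group MN1-Ib-GAL4, a driver active in the identified motoneuron MN1-Ib, drove the membrane marker UASmCD8:GFP. In the Shal RNAi group the driver also expressed an RNA interference construct against Shal, while Control carried the driver and GFP without one. Notch RNAi (4 libraries) and Notch+Shal RNAi (3 libraries) carried a Notch construct without and with the Shal construct, and their values are used below only where stated. Cell contents were drawn into a patch pipette, and each library was an independent reaction that pooled 4 to 8 cells from 1 or 2 larvae. Whether larvae were shared among the reactions of 1 group is not stated in the labels, and every p-value below therefore rests on the variation among reactions, which may be technical. The RNA interference constructs were driven only in cells where the driver was active, so the comparison concerns this identified neuron and not the animal. RNA of neighbouring cells can enter a pipette, and in pooled cells fewer cells of a type and less RNA per cell cannot be told apart.

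MN1-Ib is a glutamatergic motoneuron that innervates a body wall muscle. Shal encodes the Kv4-type channel of the fast, inactivating A-type potassium current, which sits mainly in the soma and dendrites of fly neurons and limits firing and the width of the action potential. Neurons that lose such a current are known to adjust other conductances and transmitter release, a response called homeostatic. The comparison asks which transcripts of MN1-Ib differ when Shal is targeted.

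The libraries labelled Shal RNAi were less complex than those of Control. When each library was rarefied to 3655744 nuclear counts, the expected number of nuclear genes detected was 7647, 7870 and 7033 in Shal RNAi, against 8737, 8588 and 8953 in Control. The groups did not overlap, with means of 7517 ± 434 and 8759 ± 184 genes (SD, n = 3 each, 2-sided exact permutation p = 0.1, the smallest that 3 against 3 libraries allow). Low complexity was not particular to Shal RNAi, as Notch RNAi 1 and 2 had 7067 and 7314 genes. The remaining Notch RNAi and Notch+Shal RNAi libraries had 8336 to 9401. Total counts ran from 4331405 to 7192619 in Shal RNAi and from 7371480 to 9319116 in Control. The most abundant nuclear genes that together held 50% of nuclear counts numbered 178, 319 and 207 in Shal RNAi, against 344, 336 and 400 in Control. Mitochondrially encoded RNA took 13.5, 5.36 and 11.5% of counts in Shal RNAi, against 2.38, 2.54 and 2.60% in Control. In Notch RNAi and Notch+Shal RNAi it took 0.893 to 5.83%, the highest in Notch RNAi 2. Shal RNAi 1 and 3 stood apart from Shal RNAi 2 in both measures. Across 4825 nuclear genes with a mean of at least 20 normalised CPM, the deviations from Control were more alike between Shal RNAi 1 and 3 (Spearman's rho 0.54) than between either and Shal RNAi 2 (0.17 and 0.27). This is a description over genes, which are not independent replicates. Results below are therefore also given by library.

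The labelled cell type was checked against its markers. The motoneuron markers VGlut, elav, nSyb, brp and eve summed to 2701, 2749 and 3163 CPM in Shal RNAi, against 2359, 2289 and 1483 CPM in Control. The sum hides eve, which went the other way, with 22.4, 12.9 and 27.1 CPM in Shal RNAi, against 34.3, 87.8 and 69.3 in Control. The 4 markers of cholinergic and GABA neurons summed to at most 14.5 CPM in Shal RNAi and 21.6 CPM in Control, with ChAT at 0 in all 6 libraries. The 8 glial markers summed to 218 to 761 CPM in Shal RNAi and 344 to 565 CPM in Control. The glial determinant repo was at 0 in all 3 Shal RNAi libraries and in Control 1 and 2, and at 2.44 CPM in Control 3. Single glial markers went both ways. Eaat1 held 34.4, 0 and 61.9 CPM in Shal RNAi, against 0, 8.58 and 0.407 in Control, and Gs2 169, 16.3 and 65.7 against 256, 180 and 124. The 8 muscle markers summed to 593 to 2851 CPM in Shal RNAi and 690.2 to 2648 CPM in Control. The 7 hemocyte markers summed to 62.3 to 114.8 CPM in Shal RNAi and 30.4 to 75.8 CPM in Control. The 7 fat body markers summed to 6220 to 11223 CPM in Shal RNAi and 5376 to 16278 CPM in Control. The 4 neuroblast markers summed to at most 6.67 CPM in Shal RNAi and 5.43 CPM in Control, and the 4 of trachea and epidermis to 64.8 to 98.8 CPM in Shal RNAi and 21.2 to 257 CPM in Control. Sums of the other cell types overlapped between the groups, and their part in the results was not tested.

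Shal, the targeted gene, was not lower in the libraries named for it. It stood at 94.0, 107 and 218 normalised CPM (counts of a library scaled to its total and its TMM factor) in Shal RNAi, against 4.74, 84.5 and 36.4 in Control. By this measure every Shal RNAi library lay above every Control library, with means of 139.8 ± 68.1 and 41.9 ± 40.2 (SD, n = 3 each). This separation rests on the TMM factors, which were 0.57, 1.04 and 0.62 in Shal RNAi and 1.08, 1.13 and 1.25 in Control. Raw counts were 231, 805 and 731 in Shal RNAi, against 38, 885 and 335 in Control. Scaled to total counts alone, Shal RNAi 1 lay below Control 2. The log2 fold change was 1.72 (SE 0.83), which did not pass in edgeR's quasi-likelihood test with Benjamini-Hochberg adjustment (adjusted p = 0.424), and the exact permutation p was 0.1. Shal lies on chromosome 3L, 19566851 to 19584568 (BDGP6.54), with 4606 bases of annotated exon. The level goes against the label, so "the libraries labelled Shal RNAi" is meant wherever Shal RNAi is written below. In the pair of groups that carried the Notch construct, Shal averaged 40.9 normalised CPM with the Shal construct and 46.1 without it (log2 fold change -0.15).

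Across all genes, 0 of 8908 had an adjusted p under 0.05 in edgeR (0%), and the lowest adjusted p was 0.145. By unadjusted p under 0.05 in edgeR, 716 genes stood higher (8.04% of those tested) and 331 lower (3.72%). Together these were 1047 genes, against 445 expected from p-values alone over both directions. The split of these genes moved with the scaling, to 957 higher and 186 lower with TMMwsp factors and to 302 higher and 270 lower after quantile normalisation in limma voom. By the values themselves, 573 genes (6.43%) had all 3 Shal RNAi libraries above all 3 Control libraries, and 1019 (11.4%) had them all below. The median log2 fold change of all tested genes was -0.27 (-0.38 to 0.10 over 7 other scalings and adjustments), and 3815 genes lay above 0 and 5069 below. Calls depended on the test. DESeq2 called 302 genes (165 higher, 137 lower), limma voom with sample quality weights 36, edgeR on the 6 libraries alone 23, and edgeR without Shal RNAi 2 called 146, while voom without weights called 0.

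Only 13 genes were called in each of the 4 alternatives that called more than 1 gene, and all 13 stood higher in Shal RNAi. They were singled out after their values were seen, and the 4 fits share libraries. Of the 13, 7 are mitochondrially encoded: the complex I subunits mt:ND1, mt:ND4, mt:ND5 and mt:ND6, cytochrome b (mt:Cyt-b), the ATP synthase subunit mt:ATPase6 and the large ribosomal RNA mt:lrRNA. The 6 nuclear genes were Hsp70Bb, CG41128, CG34291, CG40472, Drep2 and Mkp3. Drep2, a member of the DNA fragmentation factor family found at synapses, held 1436, 291 and 1562 normalised CPM in Shal RNAi, against 116, 138 and 103 in Control. Its log2 fold change was 3.20 (SE 0.78). CG40472 held 2412, 279 and 1901 normalised CPM in Shal RNAi, against 210.3, 104.02 and 103 in Control. In both genes Shal RNAi 1 and 3 lay far above Shal RNAi 2, which itself lay above every Control library. Adjusted p for all 13 was 0.145 to 0.173 in the fit of all 13 libraries.

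The 10 genes of lowest p that stood higher were named among nuclear genes with a mean of at least 50 normalised CPM, and mitochondrially encoded genes, some of lower p, are given as a list of their own. Only genes without overlap between the groups could be named, here and among the abundant genes and list members below. Their separation was therefore set by the rule and is no result. Hsp70Bb, 1 of the near-identical heat-inducible Hsp70 chaperone genes, held 6719, 1544 and 5461 normalised CPM in Shal RNAi, against 599, 487 and 321 in Control. All Shal RNAi libraries exceeded all Control libraries (means 4575 ± 2699 and 469 ± 139.8), with a log2 fold change of 3.29 (SE 0.66, unadjusted p = 3.82e-05, adjusted p = 0.145 in edgeR). Its reads may be split among the Hsp70 copies, and the gene lies on chromosome 3R, 12505793 to 12508139. Mctp, which encodes a membrane protein with C2 domains needed for presynaptic homeostatic plasticity in fly, held 146, 9.21 and 69.8 normalised CPM in Shal RNAi, against 1.62, 2.77 and 0 in Control. The Shal RNAi values spanned more than 10-fold among themselves and did not overlap Control (log2 fold change 5.53, SE 1.30, chromosome 2R, 18761758 to 18774824). REPTOR encodes a bZIP transcription factor that acts when TORC1 signalling is low. It held 899, 162 and 469 normalised CPM in Shal RNAi, against 24.2, 97.4 and 34.6 in Control (log2 fold change 3.27, SE 0.77, chromosome 3R, 24557368 to 24582864). CG3961, a predicted long-chain acyl-CoA synthetase, held 3223, 389 and 1866 normalised CPM in Shal RNAi, against 318, 235 and 175 in Control. As with Hsp70Bb, the lowest Shal RNAi value was that of Shal RNAi 2.

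Another 4 genes of this group were short, 3 of them coding genes whose role is not known here and 1 a pseudogene, CR43275. CG41128 held 3657, 367 and 2985 normalised CPM in Shal RNAi, against 147, 158 and 202 in Control. CG34291 held 705, 209 and 1260 in Shal RNAi, against 15.98, 93.0 and 11.2 normalised CPM in Control. CG43179 held 36.2, 47.5 and 311 normalised CPM in Shal RNAi, against 0, 7.35 and 0 in Control. CR43275 held 98.9, 26.8 and 269 normalised CPM in Shal RNAi, against 2.87, 7.55 and 0.977 in Control. The exons of these 4 genes span 267 to 777 bases. The last 2 were noncoding RNAs. lncRNA:CR44994 held 58.2, 6.81 and 88.3 normalised CPM in Shal RNAi, against 0, 0 and 1.19 in Control. lncRNA:CR44948 held 149, 0.133 and 327 normalised CPM in Shal RNAi and had no count in Control. Its mean was at least 484-fold higher in Shal RNAi when Control was set at the floor of 3 counts per library, and it rested on Shal RNAi 1 and 3.

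**Figure D1:**
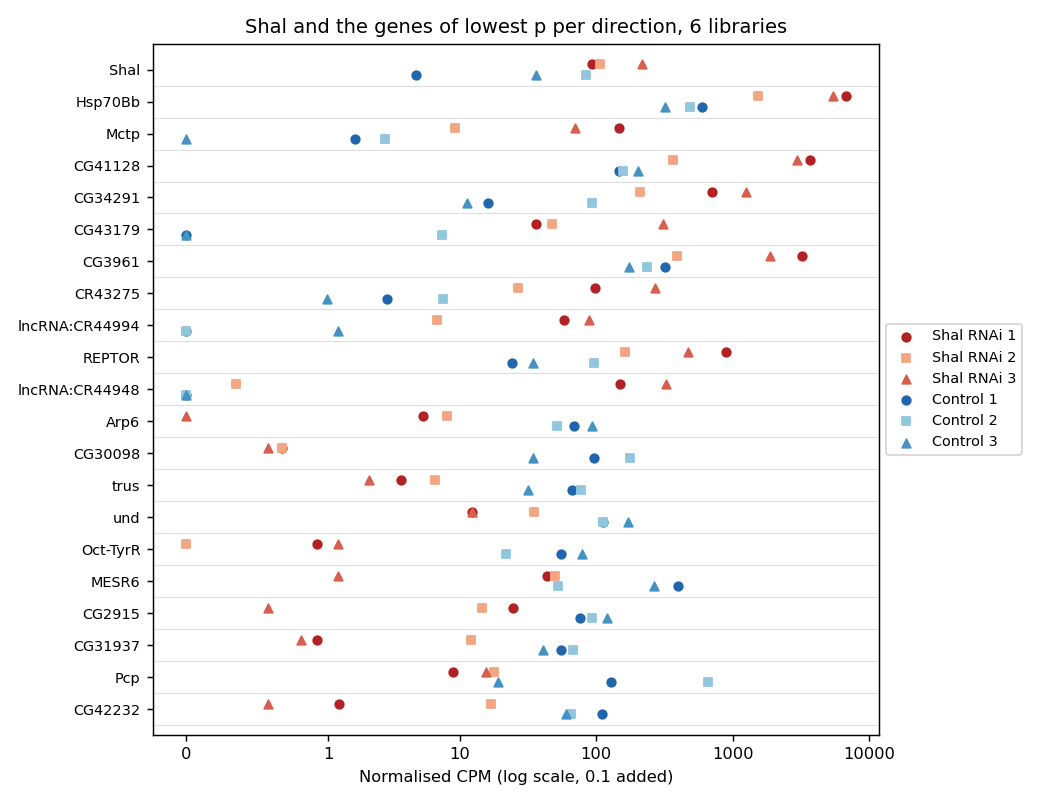
Normalised CPM (log axis, 0.1 added so that 0 can be shown) of Shal and of the 10 nuclear genes of lowest p in each direction. Each point is 1 library, with the 3 Shal RNAi libraries drawn above the 3 Control libraries of the same gene. In no row do the red and blue points overlap along the axis, which was a condition of naming for every gene but Shal.

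The 10 nuclear genes of lowest p that stood lower were of moderate level in Control. All but und and Pcp held at most 3 normalised CPM in 1 or more Shal RNAi libraries. Oct-TyrR, the octopamine and tyramine receptor, held 0.814, 0 and 1.19 normalised CPM in Shal RNAi, against 55.4, 21.8 and 79.3 in Control (log2 fold change -6.77, SE 1.95, adjusted p = 0.173 in edgeR, chromosome 3L, 22035003 to 22065279). All 3 Shal RNAi values lay far below the lowest Control value. Arp6, a nuclear actin-related protein of chromatin remodelling complexes, held 5.29, 8.01 and 0 normalised CPM in Shal RNAi, against 68.9, 51.9 and 93.9 in Control (log2 fold change -3.79, SE 1.02, adjusted p = 0.173 in edgeR). The gene und, a methionine aminopeptidase, held 12.2, 35.2 and 12.2 normalised CPM in Shal RNAi, against 112, 113 and 173 in Control (log2 fold change -2.59, SE 0.75). The rule required the groups to be apart in each of these genes. The gene trus held 3.66, 6.539 and 2.09 normalised CPM in Shal RNAi, against 67.0, 77.1 and 31.5 in Control. CG30098 held 0.298 to 0.407 normalised CPM in Shal RNAi and 34.6 to 177 in Control. Pcp, a pupal cuticle protein, held 8.95, 17.9 and 15.5 normalised CPM in Shal RNAi, against 130, 657 and 19.0 in Control, so that its lowest Control value lay close to the Shal RNAi values. The other 4, MESR6, CG2915, CG31937 and CG42232, had log2 fold changes of -2.87, -2.92, -3.13 and -3.22. Of these 10 genes, 4 (Arp6, trus, CG2915 and CG31937) share exon sequence with a gene on the other strand, and the strand setting of the counting is not given in the sources used here.

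Among abundant genes more stood higher than lower. Of the 200 nuclear genes of highest mean level, 59 (29.5%) stood higher without overlap and 8 (4%) lower, against 6.43% and 11.4% of all genes, and their median log2 fold change was 0.96. The ranking included the Shal RNAi libraries, so genes such as TotA entered through their level there. Ranked instead by the 7 libraries of the other groups, 39 of 200 genes (19.5%) stood higher without overlap and 16 (8%) lower, with a median of 0.56. TotA, the secreted stress peptide Turandot A, held 13468, 688 and 3076 normalised CPM in Shal RNAi, against 148, 427 and 105 in Control (log2 fold change 4.66, SE 1.57, adjusted p = 0.281 in edgeR). Mkp3, the phosphatase that inactivates the ERK kinase, held 2692, 866 and 2537 normalised CPM in Shal RNAi, against 237, 331 and 120 in Control (log2 fold change 3.14, SE 0.77, chromosome 3L, 19066155 to 19086426). CG16704 held 4727, 340 and 2322 normalised CPM in Shal RNAi, against 164, 297 and 67.2 in Control. In each of these the Shal RNAi libraries were all higher and Shal RNAi 2 lay nearest to Control. Hsp27, a small heat shock protein, went the other way from Hsp70Bb, with 388, 936 and 329 normalised CPM in Shal RNAi, against 1391, 1085 and 3297 in Control (log2 fold change -1.80, SE 0.62). Act42A, a cytoplasmic actin, held 610.1, 1891 and 738 normalised CPM in Shal RNAi, against 2887, 2124 and 2508 in Control. The cyclophilin CG2852 held 432, 1105 and 447 normalised CPM in Shal RNAi, against 1335, 1261 and 1959 in Control. The ribosomal proteins RpLP1 and RpS7 had log2 fold changes of -0.71 and -0.48. The rule for naming allowed no overlap between the groups in these 5 genes.

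Presence and absence were lopsided. At least 10 counts in each Control library with at most 3 counts in all over the 3 Shal RNAi libraries were found for 154 genes, and the opposite for 1, CG14302. CG14302 held 21.6, 2.94 and 152 normalised CPM in Shal RNAi, against 0, 0.0955 and 0 in Control. Npc2b, of the Niemann-Pick type C2 family of sterol-binding proteins, had no count in Shal RNAi and 117, 7.64 and 6.84 normalised CPM in Control, at least 52.2-fold lower with Shal RNAi at the floor of 3 counts per library. CG12316 held 0, 0 and 0.298 normalised CPM in Shal RNAi, against 50.9, 11.5 and 50.2 in Control. CG14109 held 0, 0.267 and 0 normalised CPM in Shal RNAi, against 37.3, 8.41 and 100.3 in Control. ImpE1, Tom and CBP had their highest level in Control 3 (149, 110.5 and 92.8 normalised CPM), with at most 11.9 in the other Control libraries and at most 1.22 in Shal RNAi. The count of 154 stands beside the lower complexity of the Shal RNAi libraries, and the part of complexity in it was not tested gene by gene.

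Differences between the groups followed the exon length of genes, in a curve that was high at both ends. Exon length is the number of bases covered by a gene's annotated exons. Genes of up to 500 bases had a median log2 fold change of 1.65 (273 nuclear genes), those of 1001 to 2000 bases -0.76 (2692 genes) and those over 5000 bases 0.57 (1329 genes). Without overlap, 47 of the 273 shortest genes stood higher (17.2%) and 6 lower. Of the 1441 genes of 1001 to 1500 bases, 25 stood higher (1.73%) and 247 lower (17.1%). Of the 253 genes over 10000 bases, 43 stood higher (17.0%) and 8 lower (3.16%). The corresponding shares of all genes were 6.43% and 11.4%. Among protein-coding genes alone the medians were close to these, at 1.67, -0.73 and 0.83 for the 3 classes just named.

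Over genes of all levels the curve came mainly from Shal RNAi 1 and 3. Expressed as the median log2 difference of a library from the Control libraries (1 normalised CPM added), genes of up to 500 bases stood at 1.83, -0.06 and 1.22 in Shal RNAi 1, 2 and 3, against 0.26, -0.16 and -0.21 in Control 1, 2 and 3, each Control library being set against the other 2. The Shal RNAi 2 value lay within the Control values, and the exact permutation p was 0.2. Genes of 1001 to 2000 bases stood at -1.28, -0.23 and -1.37 in Shal RNAi, against -0.08, 0.00 and 0.08 in Control, without overlap (exact permutation p = 0.1). Genes over 5000 bases stood at 0.62, 0.18 and 0.40 in Shal RNAi, against 0.18, -0.17 and 0.08 in Control. Here Shal RNAi 2 lay level with Control 1, and the exact permutation p was 0.1. In a fit without Shal RNAi 1 and 3 together the 3 medians were -0.75, -0.49 and 0.00. The low-count filter, rerun in that fit, kept 11275 genes instead of 8908, so these medians are not over the same genes. The same form appeared with 2 other length measures. By the shortest annotated transcript the median log2 fold change of nuclear genes outside pericentromeric regions was 1.53 up to 500 bases, -0.75 at 1001 to 1500 bases and 0.43 at 5001 to 10000 bases. By the longest coding sequence it was 0.61, -0.66 and 0.41 in the same classes. Some libraries of the other groups also deviated by exon length. At up to 500, 1001 to 2000 and over 5000 bases, Notch+Shal RNAi 3 stood at 0.83, -0.18 and 0.20. In the same order Notch RNAi 1 stood at -0.14, -0.59 and 0.26, and Notch+Shal RNAi 2 at -1.19, -0.37 and 0.44.

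**Figure D2:**
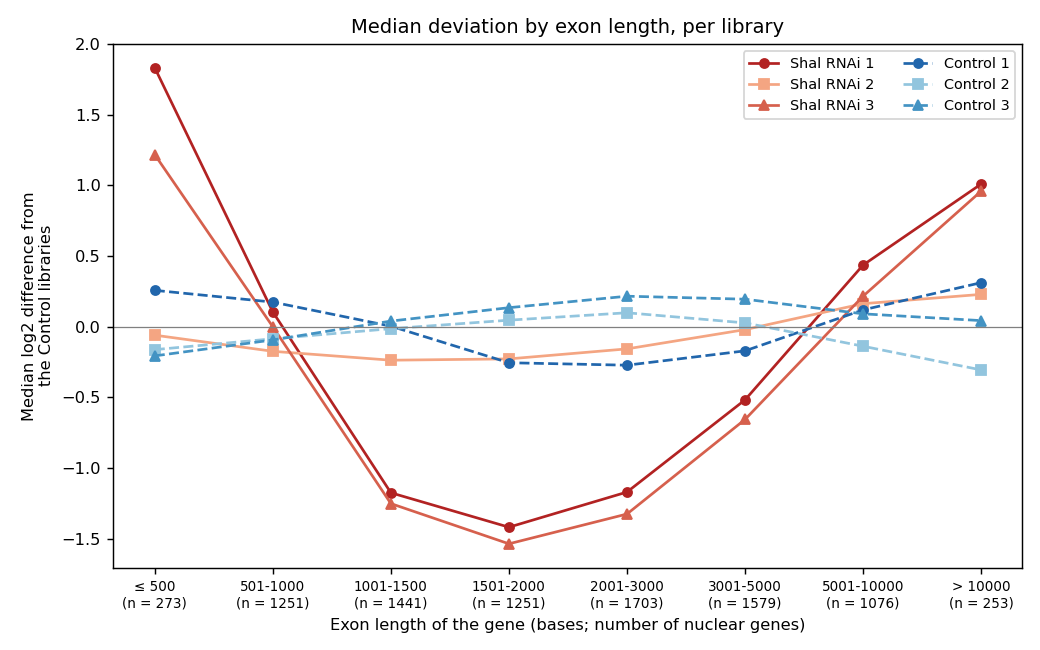
Median log2 difference from the Control libraries (vertical axis) for nuclear genes grouped by exon length in bases (horizontal axis), 1 line per library. Shal RNAi 1 and 3 run from 1.83 and 1.22 at the shortest genes through -1.42 and -1.54 at 1501 to 2000 bases to 1.01 and 0.96 at the longest, while Shal RNAi 2 and the 3 Control libraries stay within about 0.3 of 0.

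The difference also followed expression level. Over 8891 nuclear genes the log2 fold change and the mean level over 13 libraries had a Spearman's rho of 0.31. It was 0.24 with the level taken only from the 7 libraries of the other groups, which enter neither side of the comparison. By library the deviation from Control had a rho with level of 0.19, 0.20 and 0.22 in Shal RNAi, against 0.15, 0.04 and -0.14 in Control. This rho was 0.22, 0.26, 0.21 and -0.27 in Notch RNAi and 0.14, -0.07 and -0.02 in Notch+Shal RNAi. A positive rho with level was thus not particular to the libraries labelled Shal RNAi. In the 890 genes of lowest level, Shal RNAi libraries had no count for 69.7% of values and Control for 41.3%, and the fitted log2 fold changes there (median -2.61) rest on such zeros. In the 889 genes of highest level no value was 0 in either group and the median log2 fold change was 0.50. There 180 genes stood higher without overlap (20.2%) and 64 lower (7.2%), beside 6.43% and 11.4% of all genes. With the level from the other groups these numbers were 145 and 76 of 889. Shal RNAi 2, which did not show the length curve, had a rho with level as high as the others. Holding the level fixed left the length curve in place. Among genes with a mean of 5 to 7 log2 CPM the median log2 fold change was 2.05 up to 500 bases, -0.65 at 1001 to 1500 bases and 0.81 above 10000 bases. Among genes over 9 log2 CPM it was 2.21, -0.20 and 1.08. Taking the number of genes detected in each library into the fit as a covariate lowered the rho with level to 0.08 and left the medians by length at 1.28, -0.47 and 0.34 for up to 500, 1001 to 2000 and over 5000 bases.

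**Figure D3:**
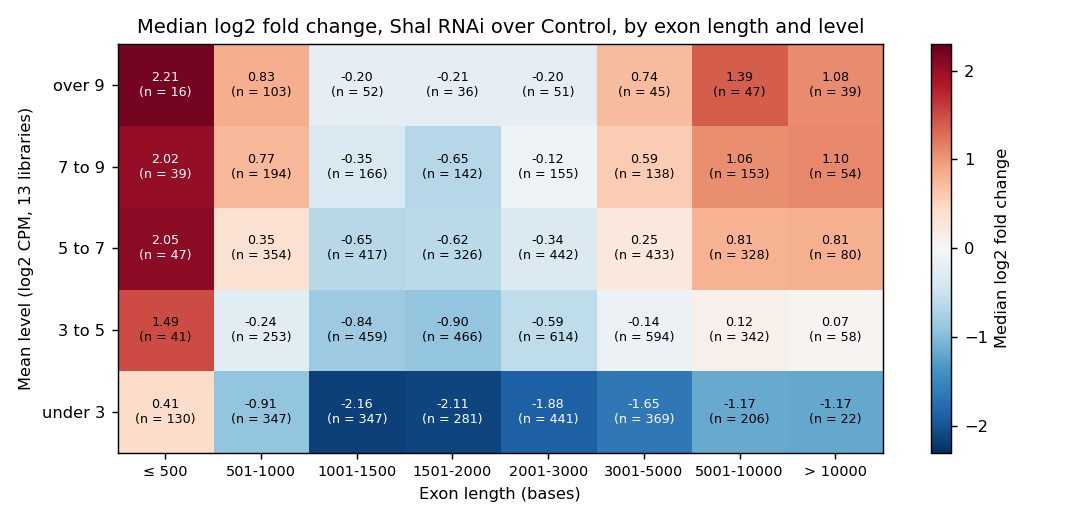
Median log2 fold change of Shal RNAi over Control for nuclear genes divided by exon length (horizontal axis, bases) and mean level (vertical axis, log2 CPM over 13 libraries), with the number of genes in each cell. In every row the shortest genes are highest and genes of 1001 to 3000 bases lowest, and in every column genes under 3 log2 CPM have the lowest value.

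Exon length was therefore taken out, in a fit of 4826 nuclear genes with a mean of at least 20 normalised CPM, by removing from each library the smooth part of its deviation that follows exon length. The 3 length medians became -0.16, 0.15 and 0.05, against 2.03, -0.62 and 0.89 in the same genes without the correction. No gene was called in either fit, and genes with an unadjusted p under 0.05 numbered 589 with it (420 higher, 169 lower) and 728 without it (522 higher, 206 lower). In the corrected fit Hsp70Bb stood at a log2 fold change of 4.16, Mkp3 at 2.60, REPTOR at 2.24, CG3961 at 2.82, Oct-TyrR at -6.88 and Arp6 at -3.17. The short genes CG41128 and CG34291 stood at 1.14 and 1.35, against 3.79 and 4.15 in the fit of all genes. RpS7 turned to 0.23 and Nop10, a component of the RNA-guided pseudouridylation particle, turned to -0.07, against 2.61 in the fit of all genes. Of the other abundant genes named as lower, Hsp27, Act42A and CG2852 stood at -0.85, -0.28 and -0.55, against -1.80, -1.21 and -1.19 in the fit of all genes. RpLP1 moved the other way, to -1.08 from -0.71.

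Synaptic release genes stood higher in all 3 Shal RNAi libraries by the median of normalised values. Of 28 tested of 31 listed, 23 lay above 0 and 5 below, with a median log2 fold change of 0.95 beside -0.27 over all genes, and 14 stood higher without overlap and 1 lower (50% and 3.57%, beside 6.43% and 11.4% of all genes). The list and its shift were known from earlier results of these data, so the count is no independent evidence. Its median deviation from Control was 0.71, 0.93 and 1.41 in Shal RNAi, against 0.07, 0.65 and -0.55 in Control, and Shal RNAi 2 shared it. With exon length taken out the median of 26 members was 0.72, against 0.94 without the correction. Without Shal RNAi 1 and 3 together it was 0.85. The sign held under the 7 other scalings and adjustments (0.17 with the covariate for genes detected to 1.22 with TMMwsp factors). On the CPM scale, without the TMM factors given above for Shal, the list summed to 7167, 15731 and 10884 in Shal RNAi, against 9932, 14129 and 7719 in Control. There the groups overlapped and Shal RNAi 1 had the lowest sum, so the higher level in that library rests on the scaling. Syngr, which encodes the synaptic vesicle protein synaptogyrin, held 141, 107 and 229 normalised CPM in Shal RNAi, against 15.6, 11.9 and 7.06 in Control (log2 fold change 3.78, SE 0.93, adjusted p = 0.145 in edgeR, chromosome 2R, 13841761 to 13846255). EndoA, the endocytic membrane-bending protein endophilin A, held 236, 113 and 189 normalised CPM in Shal RNAi, against 4.74, 23.1 and 21.3 in Control (log2 fold change 3.41, SE 0.84). In both genes all Shal RNAi values lay well above all Control values. Synj, the phosphoinositide phosphatase of vesicle uncoating, held 415, 65.3 and 389 normalised CPM in Shal RNAi, against 49.1, 32.7 and 19.5 in Control. With exon length taken out these 3 genes stood at log2 fold changes of 4.36, 3.12 and 2.53. In the Shal RNAi 2 library alone against Control the 3 fold changes were 3.25, 2.77 and 0.99 on the log2 scale.

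Guidance and adhesion molecules and neuronal RNA-binding proteins have long transcripts, and their shift shrank when length was taken out. Of 28 guidance and adhesion genes tested, 20 lay above 0 and 8 below (median 0.95), with 6 higher (21.4%) and 0 lower without overlap, beside 6.43% and 11.4% of all genes. The median of 26 of them was 0.83 without and 0.08 with the correction. Nrg, the adhesion molecule neuroglian, held 2317, 1170 and 3992 normalised CPM in Shal RNAi, against 761, 669 and 387 in Control (log2 fold change 2.04, SE 0.60, 0.95 with exon length taken out). Its Shal RNAi values all lay above Control, as the rule for naming required. Lar, a receptor tyrosine phosphatase of axon guidance and synapse growth, and tutl, the immunoglobulin-family protein Turtle, had log2 fold changes of 2.05 and 1.49, and 0.96 and 0.53 with length taken out. Of 25 neuronal RNA-binding proteins, 16 lay above 0 and 9 below (median 0.50), with 3 higher (12%) and 1 lower (4%) without overlap, and the median of 20 was 0.87 without and 0.25 with the correction. The translational regulator orb2, a CPEB protein of long-term memory, held 159.5, 139 and 400.1 normalised CPM in Shal RNAi, against 17.6, 36.3 and 12.8 in Control (log2 fold change 3.37, SE 0.92, 2.32 with length taken out). Imp, a binding protein of localised mRNAs, held 2778, 1498 and 5638 normalised CPM in Shal RNAi, against 819, 1122 and 581 in Control. Both were highest in Shal RNAi 3 and overlap other annotated genes on the same strand.

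Other neuronal groups had medians between -0.11 and 0.70. Of 32 neuronal kinases and phosphatases, 19 lay above 0 and 13 below (median 0.42), with 5 higher (15.6%) and 3 lower (9.38%) without overlap, beside 6.43% and 11.4% of all genes. The protein phosphatase 1 subunit flw held 1273, 234 and 1056 normalised CPM in Shal RNAi, against 159, 224 and 139 in Control. Of 15 neuropeptide and processing genes tested, 11 lay above 0 and 4 below (median 0.70), with 2 without overlap in each direction (13.3%). IA-2, a dense-core vesicle protein, held 2333, 1000.4 and 3858 normalised CPM in Shal RNAi, against 759, 446 and 393 in Control (log2 fold change 2.17, SE 0.69). Phm, the enzyme that begins peptide amidation, held 10.6, 44.2 and 25.96 normalised CPM in Shal RNAi, against 188, 95.8 and 114 in Control (log2 fold change -2.18, SE 0.74). Dh31, a diuretic hormone peptide, had no count in Shal RNAi and 45.2, 0.0955 and 45.4 normalised CPM in Control, so that Control 2 was close to 0. Of 25 cytoskeletal genes 7 stood higher (28%) and 4 lower (16%) without overlap (median -0.11), beside 6.43% and 11.4% of all genes. Those higher included the microtubule regulator stai (stathmin, log2 fold change 1.31), the spectrin beta-Spec (1.63) and the spectraplakin shot (1.36), while the actin Act42A lay below (-1.21). With exon length taken out these genes stood at 1.19, 0.62, 0.56 and -0.28 in the same order. Of 13 genes of retrograde BMP signalling, the muscle-to-motoneuron growth pathway, 7 lay above 0 and 6 below (median 0.21), and its transcription factor Mad had a log2 fold change of 1.87 (SE 0.83). Ecdysone response genes (12 above and 4 below of 16, median 0.47) and 21 axonal transport genes (10 above and 11 below, median -0.10) had no member higher without overlap. Under the 7 other scalings and adjustments the kinases' median ran from -0.10 (covariate for genes detected) to 0.69, that of the cytoskeletal genes from -0.26 to 0.33 and that of axonal transport from -0.66 to 0.17, so their signs turned, while those of neuropeptide, BMP and ecdysone genes did not. With exon length taken out, however, the ecdysone median was -0.30, against 0.13 in the same 11 genes without the correction. Without Shal RNAi 1 and 3 together the ecdysone and BMP medians were -0.29 and -0.23.

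Proteasome subunits stood lower, again mainly in Shal RNAi 1 and 3. Of 31 tested, 2 lay above 0 and 29 below (median -0.99), with 0 higher and 11 lower without overlap (35.5%, beside 11.4% of all genes). Their median deviation was -1.29, -0.30 and -1.99 in Shal RNAi, against 0.13, -0.50 and 0.32 in Control, so Shal RNAi 2 lay within Control. With exon length taken out the median was -0.62, against -1.01 without, and it was -1.31 to -0.74 over the 7 other scalings and adjustments and -0.30 without Shal RNAi 1 and 3 together, close to the median of all genes. Rpt6, an ATPase of the regulatory particle, held 31.7, 247 and 65.9 normalised CPM in Shal RNAi, against 403, 252 and 484 in Control (log2 fold change -1.66, SE 0.69). Rpn3 and Rpn12, subunits of its lid, had log2 fold changes of -1.60 and -1.33. Shal RNAi 2 lay just below the lowest Control library in Rpt6.

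Several other housekeeping lists lay below 0. Rab GTPases, the switches of membrane traffic, had 5 of 24 above 0 and 19 below (median -0.84, 0 higher and 6 lower without overlap, 25% beside 11.4% of all genes). Aminoacyl-tRNA synthetases had 4 of 20 above and 16 below (median -0.74), and the genes of ER translocation 3 of 20 above and 17 below (median -0.71). Chromatin remodelling genes had 11 of 34 above and 23 below (median -0.48), splicing genes 11 of 28 above and 17 below (median -0.64) and ribosome biogenesis genes 7 of 28 above and 21 below (median -0.44). With exon length taken out the medians of these 6 lists were -0.29, -0.38, -0.31, -0.43, -0.49 and -0.15, against -0.57, -0.77, -0.74, -0.67, -0.28 and -0.41 in the same genes without the correction. Without Shal RNAi 1 and 3 together the medians of the fit of all genes were -0.30, -0.19, -0.11, -0.42, -0.56 and -0.18 in the same order, so that those of chromatin remodelling and splicing stayed within 0.1 of their values with all libraries. Ribosome biogenesis turned to 0.30 with the covariate for genes detected, and the other 5 lists lay below 0 under each of the 7 other scalings and adjustments. Members named by rule were Rab8, a GTPase of exocytic traffic (log2 fold change -1.59), the aspartyl-tRNA synthetase AspRS (-2.50), the splicing factors Sf3b2 (-2.47) and Prp31 (-2.20), the ribosome assembly factor bys (-2.25) and the TFIID subunit Taf9 (-2.71). Against them stood x16, a splicing factor of the SR family, with 208, 49.5 and 54.0 normalised CPM in Shal RNAi and 10.2, 21.6 and 21.6 in Control, and Gas41, a subunit of chromatin remodelling complexes, with 254, 106 and 154 in Shal RNAi and 47.9, 26.8 and 40.8 normalised CPM in Control. These 2 genes had all Shal RNAi libraries above Control, as the rule for naming required.

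Some lists turned sign with the length correction. The tricarboxylic acid cycle, the vacuolar ATPase and translation initiation and elongation had medians of -0.13, -0.13 and -0.37 without the correction and 0.65, 0.44 and 0.29 with it (20, 15 and 33 genes). Within translation, eIF4H1, a helicase cofactor, held 1009, 428 and 1459 normalised CPM in Shal RNAi, against 369.7, 196 and 205 in Control. The eIF3 subunits eIF3l and eIF3f1 had log2 fold changes of -1.50 and -1.45. Ubiquitin ligases and the COP9 signalosome (28 tested, median -0.32) and coat proteins and Golgi traffic (24 tested, median -0.16) came to 0.07 and 0.06 with the correction. Of the ubiquitin list, the scaffold Cul4 and hiw, the ubiquitin ligase Highwire that limits synapse growth at the fly neuromuscular junction, had log2 fold changes of 2.33 and 2.46, and CSN6 and CSN7 of -1.68 and -1.44. In the RNA polymerase II and Mediator list (33 tested, 13 above 0 and 20 below), the short genes Polr2K, MED10 and MED21 stood higher. Polr2K, a small polymerase subunit, held 1443, 163 and 1124 normalised CPM in Shal RNAi, against 87.9, 85.3 and 122 in Control, with a log2 fold change of 3.20 (SE 0.84) and 0.56 with exon length taken out. MED8 had -2.23. Of 25 genes of mRNA decay and stress granules 4 stood higher (16%) and 3 lower (12%) without overlap, with the deadenylation scaffold Not1 at 1.61, the decapping factors LSm1 and Patr-1 at 1.66 and 1.82, and the nonsense-mediated decay nuclease Smg6 at -3.72. Autophagy and lysosome genes (28 tested, median -0.25) had 0 higher and 3 lower without overlap, a share of 10.7% and a median close to the 11.4% and -0.27 of all genes. The 3 included the protease CtsL1 (log2 fold change -1.45). Of 20 glutathione and redox genes 1 stood higher (5%) and 3 lower (15%), among them Sod3, a superoxide dismutase (-3.48). The medians of the ubiquitin ligases (-0.58 to -0.09) and mRNA decay (0.04 to 0.58) kept their sign, while those of the tricarboxylic acid cycle, vacuolar ATPase, translation, Golgi, polymerase, autophagy and redox lists turned it under 1 or more of the 7 other scalings and adjustments.

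Mitochondrial RNAs divided by genome. Each of the 17 mitochondrially encoded genes tested had a positive log2 fold change (median 3.23), and 14 did not overlap (82.4%). The 14 tested of the list fixed here had a median deviation from Control of 3.61, 1.35 and 3.98 in Shal RNAi, against -0.04, -0.15 and 0.10 in Control. Shal RNAi 2 lay between Control and the other Shal RNAi libraries. Nuclear genes of oxidative phosphorylation, the partners of these subunits in the respiratory chain, had 46 of 71 above 0 and 25 below (median 0.45). Without overlap 14 stood higher (19.7%) and 1 lower (1.41%), beside 6.43% and 11.4% of all genes. The median deviation of this list from Control was 0.23, 0.28 and 1.00 in Shal RNAi, against -0.35, 0.70 and -0.30 in Control. Control 2 thus lay above Shal RNAi 1 and 2. Without Shal RNAi 1 and 3 together the median log2 fold change was 0.17. In 67 of the 71 genes it was 0.42 without and 0.27 with exon length taken out, with all libraries kept. UQCR-11, a complex III subunit, held 8068, 1042 and 6306 normalised CPM in Shal RNAi, against 701, 653 and 648 in Control (log2 fold change 2.94, SE 0.75, adjusted p = 0.167 in edgeR). UQCR-6.4 and ox, of the same complex, had log2 fold changes of 3.09 and 2.75, and 1.54 and 0.18 with exon length taken out. Mitochondrial ribosomal proteins had 38 of 71 above 0 and 33 below (median 0.11, 16 higher and 2 lower without overlap, 22.5% and 2.82%), with mRpS21 at 3.17 and 1.10 with length taken out. In the import machinery (20 tested, 9 above 0 and 11 below), Tom7 of the outer membrane channel held 7247, 834 and 5332 normalised CPM in Shal RNAi, against 750.2, 481 and 428 in Control. The small chaperone Tim9a and the channel subunit Tim17b of the inner membrane had log2 fold changes of 2.38 and 1.63. The dehydrogenase subunit Ogdh of the tricarboxylic acid cycle had 2.20. Cytoplasmic ribosomal proteins had 41 of 82 above 0 and 41 below (median 0.01), with 2 higher and 18 lower without overlap (21.95% lower, beside 11.4% of all genes). RpLP2, RpL8 and sta had log2 fold changes of -1.51, -1.48 and -1.52. Over the 7 other scalings and adjustments the nuclear oxidative phosphorylation median was 0.05 to 0.71, that of mitochondrial ribosomal proteins -0.01 to 0.38 and that of import -0.48 to 0.20. The median of the cytoplasmic ribosomal proteins changed sign with the scaling, from -0.61 after quantile normalisation to 0.43 with the covariate for genes detected.

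**Figure D4:**
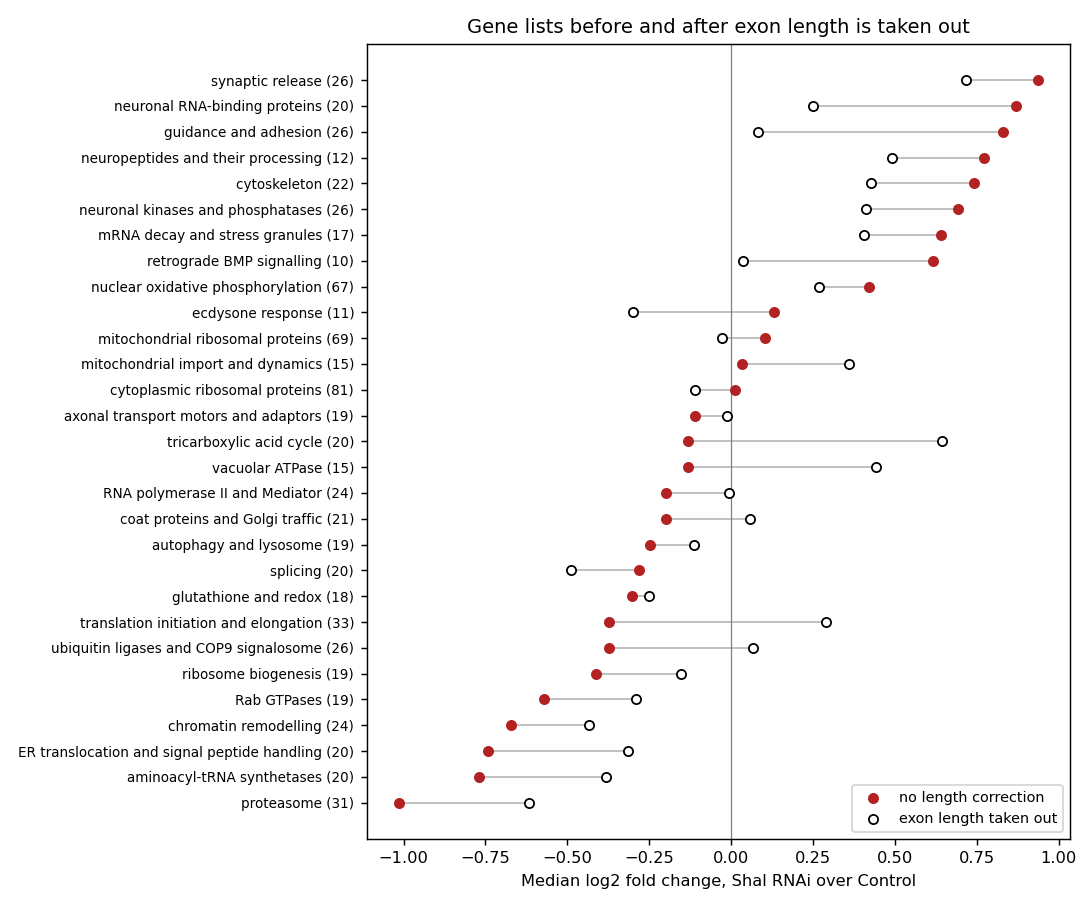
Median log2 fold change of Shal RNAi over Control in gene lists with at least 10 members in the fit (number in brackets), with no length correction (filled points) and with exon length taken out (open points). Guidance and adhesion moves to 0.08 and proteasome to -0.62, while synaptic release stays highest at 0.72.

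Most motoneuron markers lay higher. Of 5 tested, 4 lay above 0 and 1, eve, below (median 0.90, and 0.12 to 1.19 over the 7 other scalings and adjustments). In CPM, eve was lower in each Shal RNAi library than in every Control library. VGlut, the vesicular glutamate transporter, held 3081, 1614 and 2071 normalised CPM in Shal RNAi, against 1375, 825 and 381 in Control (log2 fold change 1.39, SE 0.66, 0.72 with exon length taken out). Without the TMM factors VGlut held 1748, 1682 and 1282 CPM in Shal RNAi, against 1478, 926 and 476 in Control, and the groups overlapped. Among other cell types, 2 markers were named by rule. Of the 7 hemocyte markers 3 lay above 0 and 4 below (median -0.08), and of the 7 fat body markers 6 above and 1 below (median 0.72). The hemocyte and fat body collagen Col4a1 held 48.8, 36.2 and 39.7 normalised CPM in Shal RNAi, against 4.99, 11.2 and 0.977 in Control. The fat body lipoprotein apolpp held 3138, 854 and 1431 normalised CPM in Shal RNAi, against 277, 496 and 274 in Control. Both were higher in all Shal RNAi libraries, as the rule for naming required, while the summed markers of their cell types overlapped between the groups. Cell cycle and DNA replication genes, which differentiated neurons keep low, had 4 of 20 above 0 and 16 below (median -2.03), with a median deviation of -1.80, -0.73 and -1.52 in Shal RNAi and -1.74, -0.85 and 2.50 in Control, so their level rested on Control 3. With the covariate for genes detected the median was 2.22. RnrS, a ribonucleotide reductase subunit, had no count in Shal RNAi and 11.9, 1.34 and 51.8 normalised CPM in Control.

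Genes near the centromeres had a higher median than other nuclear genes. The set was drawn after the values were seen, at the distance where the medians changed: within 5 Mb of the centromeric end of the sequence on arms 2R and 3L, 4 Mb on 3R and 2 Mb on 2L. Its 135 tested genes had a median log2 fold change of 0.72, with 34 higher (25.2%) and 6 lower without overlap, against -0.30 in 8613 other nuclear genes off chromosome 4, of which 510 (5.92%) stood higher. By library the set's median deviation from Control was 0.70, 0.45 and 0.38 in Shal RNAi, against 0.27, -0.12 and -0.06 in Control. It was 0.27, 0.44, 0.39 and -0.80 in Notch RNAi and 0.09, -0.92 and 0.50 in Notch+Shal RNAi. A positive deviation of the set was thus not particular to the libraries labelled Shal RNAi. By distance, the median on 3L was 0.48 within 2 Mb (8 genes), 1.93 at 2 to 4 Mb (11 genes), 0.81 at 4 to 5 Mb (23 genes) and -0.32 at 5 to 6 Mb (38 genes). On 2R it was 0.58, 2.08, 0.74 and -0.16 (13, 6, 20 and 38 genes). On 2L, which gave 46 of the 135 genes, it was 0.24 within 2 Mb, with 3 genes higher and 3 lower without overlap (6.52%, near the share of all genes that stood higher), then -0.56 at 2 to 4 Mb and again 0.23 at 5 to 6 Mb. The X chromosome, left out of the set, had 0.14 within 2 Mb (46 genes) and -0.29 at 2 to 4 Mb, a change of sign at the same distance as on 2L. The higher medians of the set thus lay mainly on 2R and 3L (1.00 and 0.99). Genes of chromosome 4, a small and largely heterochromatic chromosome, had a median of 0.50 (79 genes, 12 higher and 1 lower without overlap). These sets were also more abundant than other genes (median level 7.11 and 7.38 against 4.60 log2 CPM). Within matched levels of 7 to 9 log2 CPM, pericentromeric genes had a median of 0.79 (37 genes) and other genes 0.23 (979 genes).

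Length matters here too. At an exon length of 1001 to 1500 bases, 17 pericentromeric genes had a median log2 fold change of 2.24, against -0.75 for 1424 other nuclear genes, but their shortest annotated transcripts (median 880 against 1152 bases) and longest coding sequences (551 against 897 bases) were shorter. The gap ran the other way up to 500 bases, with a median of 0.04 in 8 pericentromeric genes against 1.66 in 265 others, and at 5001 to 10000 bases, with 0.37 (19 genes) against 0.51 (1057 genes). Grouped by the shortest transcript instead, the medians at 1001 to 1500 bases were 0.32 for 25 pericentromeric genes and -0.75 for 1672 others, and up to 500 bases 2.47 (17 genes) and 1.53 (378 genes). Examples of short coding sequences in long annotated exons included UQCR-11 (255 bases coding, 1613 bases of exon), RpL38, a ribosomal protein (210 and 1013 bases), and RNASEK (285 and 1160 bases). RNASEK held 18935, 2256 and 12290 normalised CPM in Shal RNAi, against 2182, 1486 and 1085 in Control. RpL38 held 19644, 2084 and 11634 normalised CPM in Shal RNAi, against 2317, 1528 and 2189 in Control, so that Shal RNAi 2 overlapped Control. The adhesion protein gene dpr21 (846 and 993 bases) held 5372, 1439 and 4467 normalised CPM in Shal RNAi, against 890.3, 635 and 380.5 in Control. With exon length taken out the median of 96 pericentromeric genes was 1.01 and that of the 4729 other genes in that fit 0.08.

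**Figure D5:**
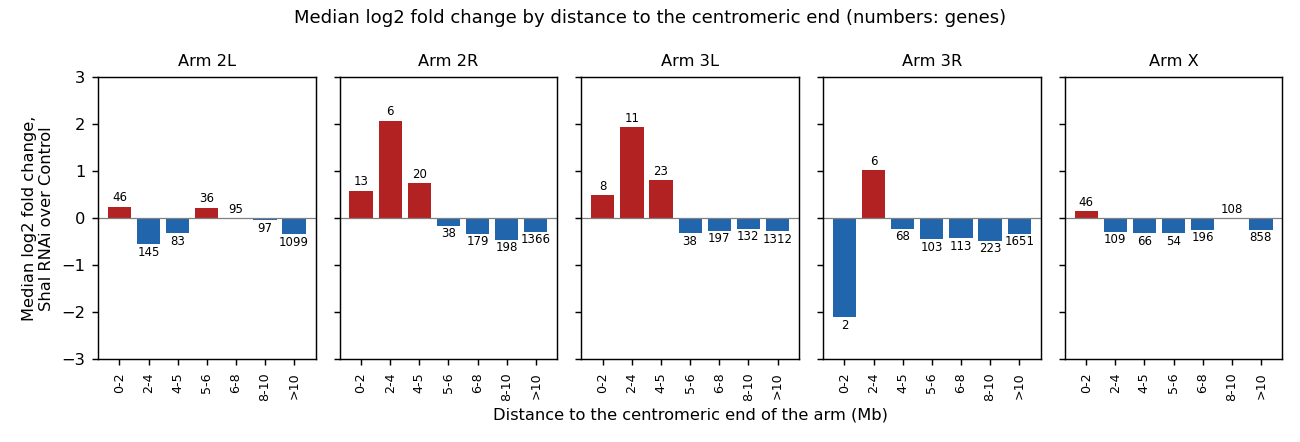
Median log2 fold change of Shal RNAi over Control by distance to the centromeric end of the assembled arm (Mb), with the number of genes at each bar. Bars are above 0 within 5 Mb on 2R and 3L and at 2 to 4 Mb on 3R, and below 0 beyond 5 Mb on those arms; the lowest bar on 3R rests on 2 genes.

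The Shal construct was also carried in the Notch+Shal RNAi group, which was set against Notch RNAi and shares no library with the groups above. Notch+Shal RNAi over Notch RNAi showed little of the pattern. The 2 comparisons differ in library complexity, as here the least complex libraries lay in the group without the Shal construct. Nuclear genes detected at equal depth were 7067, 7314, 8336 and 9401 in Notch RNAi, against 8469, 8552 and 8918 in Notch+Shal RNAi. The part of complexity in the lack of likeness was not tested. Across 8908 genes Spearman's rho between the log2 fold changes of the pair of comparisons was -0.01, and 0.03 over 4825 genes with a mean of at least 20 normalised CPM, as a description over genes. Of the 10 genes of lowest p that stood higher in Shal RNAi over Control, 6 lay above 0 in Notch+Shal RNAi over Notch RNAi, beside 55.8% of all genes that stood higher. Of the 10 that stood lower, 5 lay below 0, beside 44.1% of all genes that stood lower. Hsp70Bb averaged 1192 normalised CPM in Notch+Shal RNAi and 1198 in Notch RNAi (log2 fold change -0.01), and Mctp 1.64 and 4.66 (-1.59). Syngr and EndoA had log2 fold changes of -0.87 and -0.62 there, and Mkp3 0.52. CG34291 stood higher in both comparisons (4.15 and 3.56). For the difference between the 2 comparisons, tested as the interaction in edgeR, 0 of 8908 genes had an adjusted p under 0.05 (lowest 0.452), and 813 had an unadjusted p under 0.05. No gene's response to the Shal construct was therefore called as different with and without the Notch construct. The median log2 fold change of the synaptic release list was 0.10 in Notch+Shal RNAi over Notch RNAi and that of proteasome subunits -0.20.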

How the data were processed

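RNA of 13 pools of patched MN1-Ib motoneurons was sequenced in pairs of 100 bases after template switching and PCR, per the labels' protocols; no molecular identifier is described. The authors deposited 1 table of raw read counts per gene, without normalisation. Per the submitters' processing notes, STAR 2.7.0e, R 3.6.1, limma 3.40.6 and edgeR 3.26.7 were used with build BDGP6. What each tool did, whether strand was used in counting, and how duplicate and multiply matching reads were handled is not given in the sources used here. Symbols, positions and exon lengths came from BDGP6.54, which held 17626 of the 17753 gene IDs.

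All 13 libraries were fitted with edgeR 4.0.16 in R 4.3.3 (filterByExpr with a minimum count of 10 and a minimum total of 15, TMM factors, robust quasi-likelihood, 2-sided, Benjamini-Hochberg at 0.05 over 8908 genes), with Shal RNAi over Control as contrast. Single values of 3 against 3 libraries were compared by exact permutation. Fits were checked on simulated data. Alternatives used other factors, DESeq2 1.42.0, limma 3.58.1 voom, cyclic loess and quantile normalisation, thinning, no filter, a filter at a mean of 20 normalised CPM, a covariate for genes detected, a replicate block, the 6 libraries alone and leaving out libraries. The length-corrected fit took a loess curve (span 0.4) of each library's deviation on log exon length into the offsets, and it was added after the data had been seen, as were the pericentromeric set and the levels taken from the Notch RNAi and Notch+Shal RNAi libraries.

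Genes were named by rule: Shal; up to 10 nuclear genes per direction of lowest unadjusted p without overlap and with a mean of at least 50 normalised CPM; up to 5 per direction of largest change among the 200 most abundant; up to 6 present in 1 group only; and up to 3 per direction of each list with an unadjusted p under 0.05 and no overlap. The other genes given (Drep2, CG40472, RNASEK, RpL38 and dpr21) were picked after their values were seen. The lists, the rule and the comparison were chosen with earlier results of these data known. Of 1014 listed names, 17 had no match. Replicate numbers did not pair libraries across groups. A count of 0 allows up to 3 counts, or 0.322 to 0.693 CPM in the 6 libraries. Such floors cover counting error only, as PCR reads are not independent molecules.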

Additional observations from a re-analysis of the deposited data

How the results depend on the processing

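The number of genes called was 0 as reported and in each alternative not named here. It was 302 with DESeq2, 36 with voom and sample quality weights, 23 with the 6 libraries alone, and 0 to 146 when 1 library was left out (1 without Control 3, 146 without Shal RNAi 2, 0 without each of the other 4). With the replicate block it was 0, with 1027 genes at an unadjusted p under 0.05; libraries of the same number did not deviate together (correlations of 0.09, 0.07 and -0.04), so the numbers are only names. The rho with level, 0.31, was 0.33 with TMMwsp factors, -0.14 after cyclic loess, -0.088 after quantile normalisation, 0.25 without a filter, 0.21 with a mean of at least 20 normalised CPM (0.21 and 0.16 in the nuclear genes without and with exon length taken out), 0.082 with the covariate for genes detected, 0.24 with the level taken from the libraries of the other groups, 0.34 with DESeq2, 0.25 and 0.22 with voom without and with weights, 0.33 with legacy quasi-likelihood, and 0.22 to 0.39 with 1 library left out. The median of genes up to 500 bases, 1.65, was 0.015 without a filter, -0.16 with exon length taken out, -0.75 without Shal RNAi 1 and 3 together, and 0.27 to 1.67 with 1 library left out, lowest without Shal RNAi 1. That of 1001 to 2000 bases, -0.76, was 0.15 with exon length taken out and -1.63 to -0.65 with 1 library left out, lowest without Shal RNAi 2. That over 5000 bases, 0.57, was 0.86 with TMMwsp factors, 0.81 with a mean of at least 20 normalised CPM, 0.89 in its nuclear genes and 0.054 with their exon length taken out, 0.34 with the covariate, 0.26 and 0.29 with voom without and with weights, -0.0046 without Shal RNAi 1 and 3 together, and 0.42 to 0.72 with 1 library left out. The filter was rerun when libraries were left out. It kept 9456 to 9746 genes with 1 library left out and 11275 without Shal RNAi 1 and 3 together, against 8908 as reported. The cause of these moves was not tested, beyond the libraries and genes each alternative leaves out or adds. The difference in genes detected and the direction of Shal held in each alternative run. Of single named genes, RpS7 (0.23) and Nop10 (-0.073) turned sign with exon length taken out, and Tom (2.99) and CBP (1.05) with the covariate. Depth limits genes under 3 log2 CPM.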
